A study of Mus musculus with 12 samples.

Results

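The 46 genes described here encode the core machinery of the mammalian cell cycle and of DNA replication, and were followed in mouse abdominal-cavity macrophages that lacked or carried GPR15, a G protein-coupled receptor, with and without LPS, a component of the outer membrane of Gram-negative bacteria. They were taken from a list of symbols, and all 46 had a probe on the array among 22911 named genes. Of them 43 were among the 13283 genes tested, and Ccne2, Bub1b and Kif11 were too dim. The 4 groups of 3 arrays each were GPR15 knockout (KO) cells given LPS, wild-type (WT) cells given LPS, KO cells given PBS and WT cells given PBS. All mice were C57/BL6, all cells were cultured in DMEM with 10% FBS, and LPS was given at 100 ng/ml for 4 h. The knockout allele, the age of the mice and the purity of the macrophages are not given in the sources used here.

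A dividing cell enters the cycle when D-type cyclins bind CDK4 and CDK6 and inactivate the retinoblastoma protein, which frees E2F factors to drive the genes of S phase. Licensing factors load the MCM helicase at origins, DNA is copied with PCNA and a supply of deoxynucleotides, and cyclin B with CDK1 then brings the cell into mitosis, where the spindle checkpoint and the anaphase-promoting complex control the separation of chromosomes. Macrophages of the abdominal cavity are mostly quiescent but can divide locally. Genes of S phase often carry E2F motifs in their promoters, whereas genes of G2 and M often carry a CHR (cell cycle genes homology region) element near CCAAT boxes, to which the DREAM and MYB-FOXM1 complexes and NF-Y bind.

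Promoter windows from RefSeq (assembly GRCm38.p6, 250 bases before and 50 after each start) were at hand for 38 of the 46 genes, in 43 windows. A CHR was searched with the letters TTTGAA and, as a variant, with the letters TTCGAA. An E2F motif was searched as TTTCCCGC, TTTCGCGC, TTTGCCGC or TTTGGCGC, the CCAAT box by the letters of its name, and all of them on both strands. Of 18 windows of the G2 and M genes, 14 (77.8%) held a CHR, 16 (88.9%) a CCAAT box and 1 (5.56%), that of Cdk1, an E2F motif. Of 13 windows of the S phase genes, 2 (15.4%) held a CHR, 9 (69.2%) a CCAAT box and 6 (46.2%) an E2F motif, all 6 among the 8 windows of licensing and helicase genes. Among all 32851 promoter windows, 19.2% held a CHR, 37.4% a CCAAT box and 2.26% an E2F motif. These are matches of letters, not sites of binding, and they did not go with the direction of change in every gene. The window of Mki67, which rose with LPS, held 2 CHR and 3 CCAAT matches, and those of Ccnb1, Cenpe and Nusap1, which fell, held no CHR. The 4 promoters that follow are shown as examples of G2 and M genes with both a CHR and a CCAAT box. Each line gives the 160 bases before the start, 5′ to 3′ along the gene, with matches on either strand in capitals. They lie at chr4:118437344-118437503 on the minus strand (Cdc20), at chr2:164769769-164769928 on the plus strand (Ube2c), at chr7:80294316-80294475 on the plus strand (Prc1) and at chr10:69352913-69353072 on the minus strand (Cdk1).
Cdc20: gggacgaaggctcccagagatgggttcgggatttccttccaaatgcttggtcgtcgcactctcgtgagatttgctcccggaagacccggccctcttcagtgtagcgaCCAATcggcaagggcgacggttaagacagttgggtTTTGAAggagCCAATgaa
Ube2c: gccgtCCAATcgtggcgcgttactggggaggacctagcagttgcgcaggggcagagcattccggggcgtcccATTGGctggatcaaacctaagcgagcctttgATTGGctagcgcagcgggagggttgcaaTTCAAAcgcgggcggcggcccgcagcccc
Prc1: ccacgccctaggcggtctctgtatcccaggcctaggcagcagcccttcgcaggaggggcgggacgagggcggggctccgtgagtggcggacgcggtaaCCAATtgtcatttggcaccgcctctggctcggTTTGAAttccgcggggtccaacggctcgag
Cdk1: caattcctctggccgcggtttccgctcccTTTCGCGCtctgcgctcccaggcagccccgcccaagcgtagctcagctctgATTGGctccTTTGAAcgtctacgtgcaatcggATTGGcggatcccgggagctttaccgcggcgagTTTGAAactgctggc
The next 3, of licensing and helicase genes, are shown as examples with E2F motifs and no CHR. In Mcm5 and Mcm6 a pair of E2F matches on opposite strands overlap and appear as a single run of capitals. They lie at chr8:75109349-75109508 on the plus strand (Mcm5), at chr1:128359706-128359865 on the minus strand (Mcm6) and at chr11:98907991-98908150 on the plus strand (Cdc6).
Mcm5: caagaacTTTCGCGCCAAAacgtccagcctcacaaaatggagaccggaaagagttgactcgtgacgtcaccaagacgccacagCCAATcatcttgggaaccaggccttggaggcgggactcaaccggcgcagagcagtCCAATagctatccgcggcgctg
Mcm6: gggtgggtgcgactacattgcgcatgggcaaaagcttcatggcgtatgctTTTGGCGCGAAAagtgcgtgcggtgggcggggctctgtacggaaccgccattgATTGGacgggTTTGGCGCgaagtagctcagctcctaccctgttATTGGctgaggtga
Cdc6: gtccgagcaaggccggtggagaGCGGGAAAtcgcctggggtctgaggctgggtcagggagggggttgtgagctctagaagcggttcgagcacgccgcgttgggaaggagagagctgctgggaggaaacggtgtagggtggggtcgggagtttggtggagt

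Signals are given as log2 of the processed intensity less that of the array's 75th percentile of non-control spots, so 0 marks the 75th percentile. Across genes, replicate arrays correlated at 0.990 to 0.998, a description only because genes do not replicate each other. The labels number the replicates without saying whether they came from separate mice, so p-values measure the spread between these arrays, which may be technical. The probe of Gpr15 was not well above background on any of the 12 arrays, and does not serve to check the KO label. All 8 macrophage markers were well above background on every array. All 10 B-cell markers were as well, and so were 7 of the 10 T-cell and NK-cell markers on the array (not Cd8a, Klrb1c and Ncr1). In bulk RNA, fewer cells of a type and less RNA per cell cannot be told apart. By the file headers 2 slides were used. All KO LPS arrays and KO PBS replicate 3 came from slide 2, and the 6 WT arrays together with the other 2 KO PBS arrays came from slide 1. KO LPS and WT LPS arrays therefore never shared a slide. Well above background on all 12 arrays were 38 of the 43 genes tested, and the other 5 were Cdk1, Aurkb, Bub1, Cenpf and Nusap1, all of G2 and M.

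The first question was how cell cycle genes changed with LPS in KO and in WT cells. In both, most genes of G2 and mitosis fell, among them the cyclins Ccna2 and Ccnb1, the anaphase activator Cdc20 and the spindle protein Prc1. The genes of S phase moved by smaller amounts in both directions, and the D-type cyclin Ccnd2 rose 7.77-fold in KO and 8.12-fold in WT. With LPS, 11 of 43 genes rose and 26 fell in KO cells, and 9 rose and 24 fell in WT cells (limma over all 13283 genes, adjusted p under 0.05). Of all genes tested, 67% were called in KO, 35.1% higher and 32% lower, and 64.7% in WT, 33.7% higher and 31% lower. Falls of at least 2-fold were called for 9 members in each genotype, against 7.26% of all genes in KO and 8.05% in WT. In both these were Ccna2, Ccnb1, Aurkb, Cdc20, Bub1, Prc1 and Cenpf, joined by Ccnd1 and Plk1 in KO and by Cenpe and Kif20a in WT. By the bounds given with each gene, Bub1 in both genotypes and Cenpf in WT were not shown to reach 2-fold. Both genes passed the filter for testing only through PBS arrays. Ccnd2 was the 1 member that rose at least 2-fold, where 7.09% of all genes did so in KO and 7.54% in WT. The median change over the 43 genes was -0.45 log2 units in KO and -0.45 in WT, beside 0.040 and 0.027 over all genes. With dim genes at their bounds, or at 0 where no bound could be had, it was -0.45 in KO and -0.39 in WT. The LPS and PBS arrays did not overlap, with LPS above for 11 and below for 27 members in KO, and above for 8 and below for 23 in WT, where 72.1% of all genes did not overlap in KO and 69.4% in WT.

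**Figure D1:**
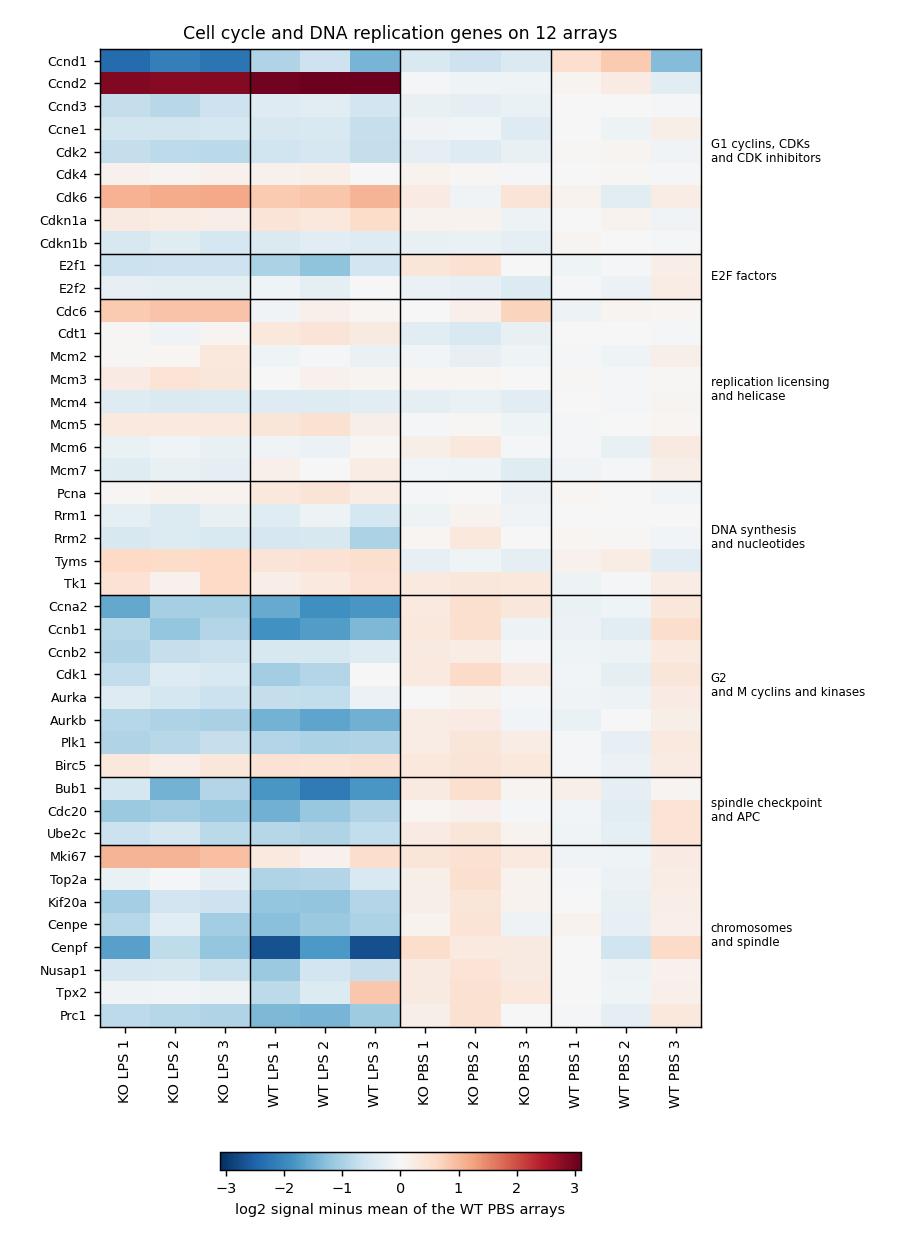
Heat map of the 43 tested genes (down the page, grouped by role) on 12 arrays (columns: KO LPS, WT LPS, KO PBS, WT PBS, 3 each), coloured by log2 signal less the mean of the WT PBS arrays. Ccnd2 stands out in dark red on all 6 LPS arrays, the lower block of G2 and M genes is mostly blue there, and Mki67 is red on the KO LPS arrays.

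The change with LPS per gene is plotted in order of role, and the G2 and M genes take up its lower part.

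**Figure D2:**
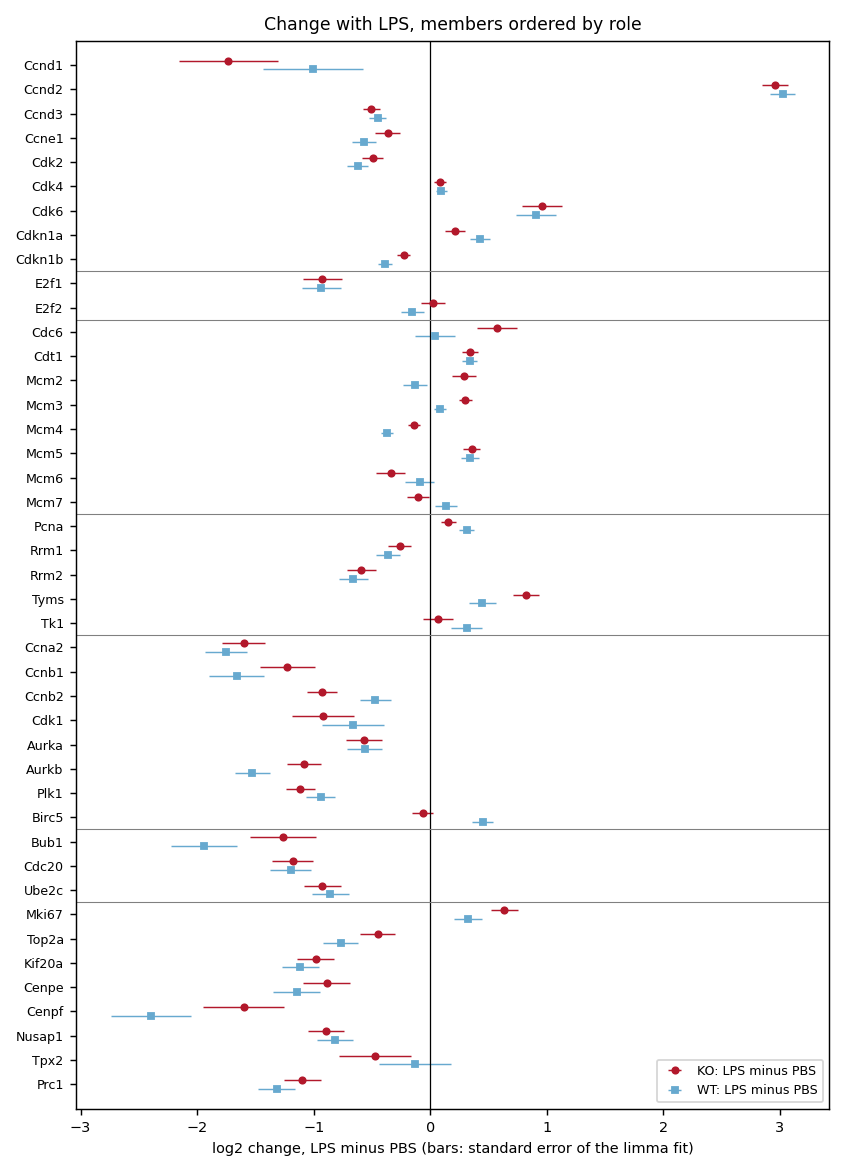
Change with LPS in KO (red circles) and WT (blue squares) for each gene, as the log2 difference of LPS less PBS, with bars for the standard error. Ccnd2 lies near 3 in both genotypes, and 16 of 19 G2 and M genes were called lower in each. Aurkb, Bub1 and Cenpf in WT and Bub1 in KO are fitted on LPS arrays where the probe was not well above background.

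Among the G1 cyclins, kinases and inhibitors, the 3 D-type cyclins, which activate CDK4 and CDK6, moved differently. Ccnd2 had 7.598, 7.54 and 7.57 on the KO LPS arrays, against 4.68, 4.58 and 4.58 on the KO PBS arrays. In WT it had 7.702, 7.76 and 7.76 with LPS, against 4.79, 4.97 and 4.39 with PBS. All 6 LPS arrays lay above all 6 PBS arrays by more than 2 log2 units. Ccnd2 changed with LPS by 2.96 log2 units (SE 0.11, adjusted p = 1.46e-09) in KO and by 3.02 log2 units (SE 0.11, adjusted p = 9.1e-10) in WT, rank 65 and rank 59 among the 13283 genes by size of rise. Its 3 probes gave changes between 2.93 and 3.15 log2 units in both genotypes.
Ccnd1 had -2.55, -2.28 and -2.42 on the KO LPS arrays, against -0.64, -0.79 and -0.61 on the KO PBS arrays. WT cells gave -1.09, -0.79 and -1.61 with LPS, against 0.36, 0.66 and -1.49 with PBS. The groups did not overlap in KO, while WT PBS replicate 3 lay among the WT LPS arrays. Ccnd1 changed with LPS by -1.73 log2 units (SE 0.43, adjusted p = 0.00362) in KO. In WT the change was -1.005 log2 units (SE 0.43, adjusted p = 0.0566), which missed the threshold. It passed with the replicate number as a block, at -1.005 (adjusted p = 0.0159), and without WT PBS replicate 3, at -1.67 log2 units (adjusted p = 1.64e-05).
Ccnd3 fell in both genotypes, by 1.42-fold in KO (-0.51 log2 units) and 1.37-fold in WT (-0.45).

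Cdk6, a partner of the D-type cyclins, had -2.24, -2.18 and -2.14 on the KO LPS arrays, against -3.07, -3.44 and -2.92 on the KO PBS arrays. The WT LPS arrays had -2.51, -2.46 and -2.28, against -3.22, -3.66 and -3.09 on the WT PBS arrays. In each genotype the LPS arrays were higher, without overlap. Cdk6 changed by 0.96 log2 units (SE 0.17, adjusted p = 0.000396) in KO and by 0.91 log2 units (SE 0.17, adjusted p = 0.000565) in WT. Cdk4, the other partner, was not called, at 0.086 log2 units in KO and 0.096 in WT.
Cdkn1a, which encodes the CDK inhibitor p21, had 3.82, 3.78 and 3.73 with LPS in KO, against 3.66, 3.64 and 3.39 with PBS. With LPS, WT cells had 3.93, 3.86 and 4.11, against 3.55, 3.64 and 3.43 with PBS. No LPS array of either genotype overlapped its PBS arrays, and LPS was higher. Cdkn1a changed by 0.21 log2 units (SE 0.085, adjusted p = 0.0413) in KO and by 0.43 log2 units (SE 0.085, adjusted p = 0.000813) in WT. The KO call was lost without any one of 6 arrays, at adjusted p up to 0.161 without KO PBS replicate 3, and under normexp background correction the KO estimate was -0.013 (adjusted p = 0.904).
Cdkn1b, which encodes the inhibitor p27, fell by 1.17-fold in KO and 1.31-fold in WT. Ccne1, the cyclin of the G1 to S transition, fell by 1.29-fold and 1.48-fold, and its kinase Cdk2 by 1.41-fold and 1.54-fold. The KO calls of Cdkn1b and Ccne1 were lost with slide as a term, at -0.18 (adjusted p = 0.0738) and -0.18 (adjusted p = 0.26). Ccne2, well above background on 0 of 12 arrays, stood at -6.27, -6.799 and -6.98 on the KO LPS arrays, -5.96, -6.36 and -5.88 on the WT LPS arrays, -6.24, -6.202 and -6.68 on the KO PBS arrays and -6.33, -6.36 and -6.18 on the WT PBS arrays, so no fold is given.

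Values by array for 6 members, with their spread, show the Ccnd2 rise and the Ccnd1 and Ccnb1 falls beside the Mki67 rise.

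**Figure D3:**
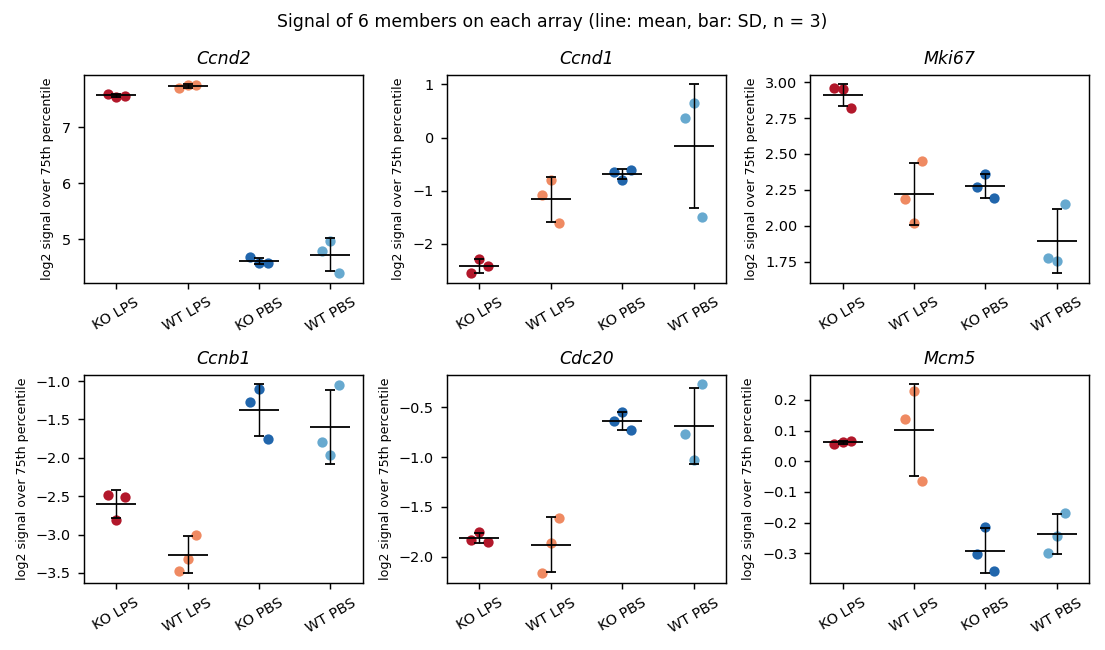
Signal of Ccnd2, Ccnd1, Mki67, Ccnb1, Cdc20 and Mcm5 on each array (points), with the group mean (line) and SD (bar, n = 3), in log2 over the 75th percentile. WT PBS replicate 3 stands at -1.49 for Ccnd1, apart from the other WT PBS arrays, and the KO LPS arrays lie between 2.82 and 2.96 for Mki67.

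Of the E2F factors, E2f1, an activator of S phase genes, fell by 1.9-fold in KO (-0.93 log2 units) and 1.91-fold in WT (-0.94). E2f2 was not called, at 0.022 in KO and -0.15 in WT, although with the replicate block its WT change passed, at -0.15 (adjusted p = 0.0277).

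Of the 8 licensing and helicase genes, 5 rose and 2 fell in KO, and 2 rose and 1 fell in WT. Cdt1, which loads the MCM helicase, had 3.26, 3.12 and 3.31 with LPS in KO, against 2.89, 2.77 and 3.01 with PBS. On WT arrays it was 3.57, 3.63 and 3.51 with LPS, against 3.25, 3.25 and 3.21 with PBS. LPS arrays were higher in KO and in WT, without overlap. Cdt1 changed by 0.34 log2 units (SE 0.067, adjusted p = 0.000828) in KO and by 0.34 log2 units (SE 0.067, adjusted p = 0.000849) in WT.
Cdc6, the other loading factor, had -2.39, -2.31 and -2.302 with LPS in KO, against -3.21, -3.02 and -2.49 with PBS. In WT it had -3.29, -3.03 and -3.12 with LPS, against -3.33, -3.102 and -3.13 with PBS. KO PBS replicate 3 lay close to the KO LPS arrays, which share its slide. Cdc6 changed by 0.57 log2 units (SE 0.17, adjusted p = 0.0109) in KO and was not called in WT, at 0.041 log2 units. With slide as a term the KO value was 0.16 (adjusted p = 0.428), and without KO PBS replicate 1 the adjusted p was 0.0521.
Mcm5, a subunit of the MCM2-7 helicase, had 0.057, 0.064 and 0.066 with LPS in KO, against -0.30, -0.21 and -0.36 with PBS. WT cells gave 0.14, 0.23 and -0.063 with LPS, against -0.30, -0.24 and -0.17 with PBS. The LPS arrays were higher without overlap in both. Mcm5 changed by 0.35 log2 units (SE 0.076, adjusted p = 0.00144) in KO and by 0.34 log2 units (SE 0.076, adjusted p = 0.00185) in WT.
Mcm3 had 2.39, 2.56 and 2.49 with LPS in KO, against 2.19, 2.19 and 2.16 with PBS. The WT LPS arrays had 2.16, 2.28 and 2.23, against 2.17, 2.09 and 2.17 on the WT PBS arrays. The groups were apart in KO and overlapped in WT. Mcm3 changed by 0.30 log2 units (SE 0.053, adjusted p = 0.000327) in KO and was not called in WT (0.085). Of 2 further probes, the first gave 0.24 log2 units in KO (adjusted p = 0.00535) and the second -0.027 (adjusted p = 0.866).
Mcm2 rose and Mcm6 fell in KO alone by the threshold, at 0.29 and -0.34 log2 units, beside -0.13 and -0.090 in WT. The difference between genotypes was called for neither. Mcm4 fell in both, at -0.14 in KO and -0.37 in WT, and Mcm7 was not called in either (-0.10 and 0.14). With slide as a term the KO calls were lost, at 0.28 (adjusted p = 0.131) for Mcm2, -0.084 (adjusted p = 0.315) for Mcm4 and -0.12 (adjusted p = 0.549) for Mcm6.

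Among the genes of synthesis and nucleotides, Tyms, which makes thymidylate, had 0.99, 0.95 and 0.98 with LPS in KO, against 0.12, 0.23 and 0.10 with PBS. With LPS, WT cells had 0.77, 0.82 and 0.88, against 0.50, 0.60 and 0.032 with PBS. In each genotype the LPS arrays were higher, without overlap. Tyms changed by 0.82 log2 units (SE 0.11, adjusted p = 5.61e-05) in KO and by 0.45 log2 units (SE 0.11, adjusted p = 0.00471) in WT.
Both subunits of ribonucleotide reductase fell. Rrm1 changed by -0.26 log2 units in KO and -0.36 in WT, and Rrm2 by -0.59 and -0.66. The KO call of Rrm1 was lost with slide as a term, at -0.21 (adjusted p = 0.243), under normexp, and without KO PBS replicate 2 or KO LPS replicate 1 or 2, at adjusted p up to 0.149. The sliding clamp Pcna rose by 1.11-fold in KO and 1.24-fold in WT, with an adjusted p of 0.0499 in KO, which passed the threshold before rounding and was lost under most other settings. Tk1, thymidine kinase, was not called, at 0.067 in KO and 0.31 in WT, but its WT change passed with the replicate block, at 0.31 (adjusted p = 0.0154).

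Of 21 genes of G2 and M, 19 were tested. With LPS, 16 fell and 1 rose in KO, and 16 fell and 2 rose in WT, with median changes of -0.93 and -0.94 log2 units. With dim genes at their bounds, or at 0 where no bound could be had, the medians were -0.93 and -0.86. Of all genes tested, 32% fell and 35.1% rose in KO, and 31% fell and 33.7% rose in WT. Among the 14 G2 and M genes that were well above background on all 12 arrays, 11 fell and 1 rose in KO, and 11 fell and 2 rose in WT. The mean signal of the 19 genes, less that of the WT PBS arrays, was -0.66, -0.57 and -0.64 on the KO LPS arrays, against 0.25, 0.39 and 0.12 on the KO PBS arrays. It was -1.11, -1.03 and -0.77 on the WT LPS arrays, against -0.060, -0.23 and 0.29 on the WT PBS arrays. No LPS array of either genotype overlapped its PBS arrays, and LPS was lower. This mean takes in Aurkb, Bub1 and Cenpf on WT LPS arrays and Bub1 on KO LPS arrays, where their probes were not well above background. The size of its fall is therefore uncertain. The same mean over the 13 S phase genes stayed between -0.061 and 0.12 on all 12 arrays.

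**Figure D4:**
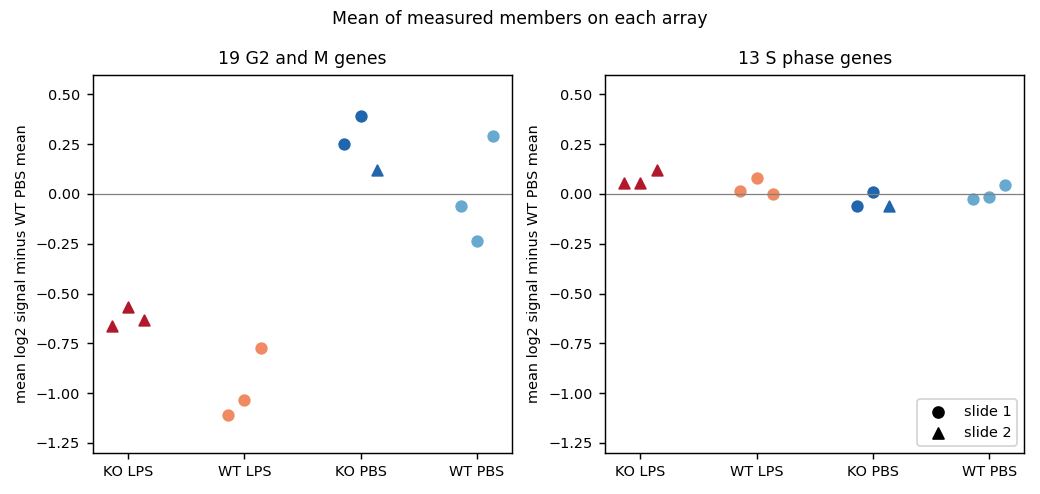
Mean log2 signal of the 19 tested G2 and M genes (left) and the 13 S phase genes (right) on each array, less the mean of the WT PBS arrays. Circles are arrays of slide 1 and triangles arrays of slide 2. The 6 LPS arrays lie between -1.11 and -0.57 on the left and near 0 on the right. The left means take in Aurkb, Bub1 and Cenpf in WT and Bub1 in KO on LPS arrays where the probe was not well above background.

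Of the mitotic cyclins and kinases, Ccna2, a cyclin of S phase and G2, had -3.37, -2.83 and -2.81 with LPS in KO, against -1.48, -1.29 and -1.43 with PBS. On WT arrays it was -3.34, -3.68 and -3.604 with LPS, against -2.000, -1.93 and -1.44 with PBS. Every LPS array was lower than every PBS array. Ccna2 changed by -1.601 log2 units (SE 0.18, adjusted p = 1.08e-05) in KO and by -1.75 log2 units (SE 0.18, adjusted p = 4.48e-06) in WT, 3.03-fold and 3.37-fold lower.
Ccnb1, the cyclin that brings CDK1 into mitosis, had -2.48, -2.81 and -2.51 with LPS in KO, against -1.27, -1.11 and -1.75 with PBS. In WT it had -3.47, -3.32 and -3.001 with LPS, against -1.796, -1.96 and -1.05 with PBS. LPS arrays were lower in KO and in WT, without overlap. Ccnb1 changed by -1.22 log2 units (SE 0.24, adjusted p = 0.000686) in KO and by -1.66 log2 units (SE 0.24, adjusted p = 5.86e-05) in WT.
Plk1, a kinase of mitotic entry, had -1.85, -1.78 and -1.62 with LPS in KO, against -0.68, -0.55 and -0.68 with PBS. WT cells gave -1.83, -1.898 and -1.83 with LPS, against -0.95, -1.17 and -0.62 with PBS. The arrays did not overlap in either. Plk1 changed by -1.11 log2 units (SE 0.12, adjusted p = 7.43e-06) in KO and fell by 1.92-fold in WT.
Aurkb, a kinase of the chromosomal passenger complex, had -3.46, -3.54 and -3.59 with LPS in KO, against -2.36, -2.31 and -2.67 with PBS. The WT LPS arrays had -4.05, -4.21 and -4.06, where it was not well above background, against -2.79, -2.57 and -2.39 on the WT PBS arrays. It changed by -1.08 log2 units in KO and was at least 2.49-fold lower in WT (adjusted p = 2.33e-06). Such a bound replaces the dim group's value, on each array, by the weakest signal that still counted as above background there, or by the probe's own if that was higher.
Ccnb2 fell by 1.9-fold in KO and 1.38-fold in WT, Aurka by 1.48-fold and 1.48-fold, and Cdk1, the mitotic kinase itself, by 1.89-fold and 1.58-fold. The WT call of Cdk1 (adjusted p = 0.0465) was lost without any one of 10 arrays, at adjusted p up to 0.185, and with slide as a term, at -0.66 (adjusted p = 0.0534). In KO the slide term took the calls of Cdk1, at -0.79 (adjusted p = 0.114), and Aurka, at -0.50 (adjusted p = 0.0827).
Birc5, which encodes survivin of the same passenger complex, moved the other way in WT. It had 0.77, 0.66 and 0.80 with LPS in KO, against 0.79, 0.85 and 0.78 with PBS. With LPS, WT cells had 0.89, 0.89 and 0.93, against 0.38, 0.27 and 0.71 with PBS. The KO groups overlapped and the WT groups did not. Birc5 changed by 0.45 log2 units (SE 0.092, adjusted p = 0.00104) in WT and was not called in KO, at -0.065. A second probe gave -0.71 log2 units in KO (adjusted p = 0.0327) and -0.38 in WT (adjusted p = 0.245), so the 2 probes had opposite signs in WT.

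Of the spindle checkpoint and anaphase genes, Cdc20, which activates the anaphase-promoting complex, had -1.84, -1.75 and -1.85 with LPS in KO, against -0.63, -0.54 and -0.72 with PBS. On WT arrays it was -2.17, -1.86 and -1.61 with LPS, against -0.76, -1.02 and -0.27 with PBS. The LPS arrays were lower without overlap in both. Cdc20 changed by -1.18 log2 units (SE 0.17, adjusted p = 8.99e-05) in KO and by -1.196 log2 units (SE 0.17, adjusted p = 7.29e-05) in WT. A second probe gave -0.39 in KO (adjusted p = 0.0557) and -0.78 in WT. Ube2c, the ubiquitin-conjugating enzyme of that complex, fell by 1.9-fold in KO and 1.81-fold in WT.
Bub1, a kinase of the checkpoint, had -4.54, -5.48 and -4.92 with LPS in KO, against -3.73, -3.502 and -3.92 with PBS. In WT it had -5.81, -6.21 and -5.82 with LPS, against -3.83, -4.27 and -3.92 with PBS. It was well above background on the 3 KO PBS arrays and 1 WT PBS array and on no LPS array. Bub1 was at least 1.65-fold lower with LPS in KO (adjusted p = 0.00204), and no fold is given for WT. Its probe passed the filter only through the KO PBS arrays, where it was highest, so the KO fall and its p-value are no independent support. The KO call was lost within slide 2 alone.
Bub1b and Kif11, the checkpoint protein BUBR1 and a spindle motor, were not tested and were well above background on 2 and 1 of the KO PBS arrays only. Bub1b had -4.75, -4.46 and -5.14 with LPS in KO, against -3.93, -3.43 and -4.04 with PBS, and -5.11, -4.23 and -5.402 with LPS in WT, against -3.97, -4.59 and -3.76 with PBS. Kif11 had -5.701, -5.52 and -5.398 with LPS in KO, against -4.21, -4.11 and -4.21 with PBS, and -5.93, -6.55 and -5.79 with LPS in WT, against -4.903, -4.897 and -4.299 with PBS. With so few arrays above background, no fold is given for either.

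Of the genes of chromosomes and spindle, Prc1, which bundles the central spindle, had -1.18, -1.25 and -1.297 with LPS in KO, against -0.18, 0.11 and -0.36 with PBS. WT cells gave -1.77, -1.81 and -1.47 with LPS, against -0.41, -0.66 and -0.031 with PBS. In each genotype the LPS arrays were lower, without overlap. Prc1 changed by -1.098 log2 units (SE 0.16, adjusted p = 7.48e-05) in KO and by -1.32 log2 units (SE 0.16, adjusted p = 1.47e-05) in WT.
Cenpf, a kinetochore protein, had -4.704, -3.82 and -4.22 with LPS in KO, against -2.48, -2.72 and -2.73 with PBS. The WT LPS arrays had -5.72, -4.79 and -5.74, against -2.997, -3.64 and -2.43 on the WT PBS arrays. It was well above background on 2 of 3 KO LPS arrays and on 0 of 3 WT LPS arrays. Cenpf changed by -1.601 log2 units (SE 0.35, adjusted p = 0.00153) in KO and was at least 1.91-fold lower in WT (adjusted p = 6.61e-05). Its probe passed the filter only through the PBS arrays, where it was higher, so these falls and p-values are no independent support.
Cenpe, a kinetochore motor, had -1.46, -0.89 and -1.65 with LPS in KO, against -0.46, -0.14 and -0.74 with PBS. With LPS, WT cells had -1.87, -1.73 and -1.55, against -0.47, -0.83 and -0.42 with PBS. No LPS array of either genotype overlapped its PBS arrays, and LPS was lower. Cenpe changed by -1.15 log2 units (SE 0.20, adjusted p = 0.000294) in WT and by -0.89 in KO, a call lost with slide as a term, at -0.60 (adjusted p = 0.0845).
Kif20a, a kinesin of cytokinesis, had -2.86, -2.42 and -2.46 with LPS in KO, against -1.64, -1.45 and -1.704 with PBS. On WT arrays it was -3.03, -3.05 and -2.73 with LPS, against -1.798, -2.06 and -1.603 with PBS. LPS arrays were lower in KO and in WT, without overlap. Kif20a changed by -1.12 log2 units (SE 0.16, adjusted p = 5.39e-05) in WT and by -0.98 in KO.
Nusap1, a spindle protein, fell by 1.86-fold in KO and 1.76-fold in WT, and Top2a, the topoisomerase that untangles sister chromatids, by 1.37-fold and 1.7-fold. The KO call of Top2a was lost with slide as a term, at -0.29 (adjusted p = 0.276). Tpx2, a spindle assembly factor, was not called in either, at -0.47 log2 units in KO and -0.13 in WT. WT LPS replicate 3 stood at -1.43 for Tpx2, and without it the values were -0.47 in KO (adjusted p = 0.00604) and -0.61 in WT (adjusted p = 0.00262).
Mki67, the gene of the proliferation marker Ki-67, rose in place of falling. It had 2.96, 2.95 and 2.82 with LPS in KO, against 2.27, 2.36 and 2.19 with PBS. In WT it had 2.19, 2.02 and 2.45 with LPS, against 1.78, 1.75 and 2.15 with PBS. The KO groups were apart, while the WT groups overlapped. Mki67 changed by 0.63 log2 units (SE 0.12, adjusted p = 0.000507) in KO and by 0.33 log2 units (SE 0.12, adjusted p = 0.0289) in WT. The WT call was lost without any one of 4 arrays, at adjusted p up to 0.123 without WT LPS replicate 3.

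Markers of other cell types moved with these falls. The summed signal of the 10 B-cell markers, as a multiple of each array's 75th percentile, was 59.1 to 59.7 on the KO LPS arrays, against 127.2 to 133.7 on the KO PBS arrays. On the WT LPS arrays it was 73.5 to 87.4, against 148.4 to 188.8 on the WT PBS arrays. Every LPS array thus lay below every PBS array. With LPS, 8 of the 10 were called lower in KO and 7 in WT, and 0 higher. The sum over the 10 T-cell and NK-cell markers was 10.6 to 12.2 on the KO LPS arrays, against 17.8 to 19.3 on the KO PBS arrays, and 13.04 to 14.2 on the WT LPS arrays, against 19.96 to 25.3 on the WT PBS arrays. Of the 7 that were tested, 2 were called higher and 2 lower with LPS in KO, and 1 higher and 5 lower in WT. The T-cell and NK-cell sums were lower with LPS in both genotypes, but such a sum follows its brightest gene. Here that was Cd2, which changed by -1.95 log2 units in KO and -1.86 in WT, while Gzma rose (1.80 and 2.27). The macrophage sums that follow overlapped. Their brightest gene was Cd14, at a mean of 8.54 on the KO LPS and 8.73 on the WT LPS arrays, which rose. The sum over the 8 macrophage markers was 632 to 653 on the KO LPS arrays, against 646 to 724 on the KO PBS arrays, and 631 to 704 on the WT LPS arrays, against 641 to 681 on the WT PBS arrays. Of these 8, 6 were called lower in both genotypes, among them Csf1r (-1.13 log2 units in KO, -1.28 in WT) and Mertk (-1.05 and -1.41), 1 was called higher in KO (Cd14, 0.48) and 2 in WT (Cd14, 0.48, and Fcgr1, 2.42). Dendritic-cell markers summed to 71.3 to 79.0 on the KO LPS arrays, against 23.4 to 26.5 on the KO PBS arrays, and to 76.0 to 77.2 on the WT LPS arrays, against 26.8 to 32.0 on the WT PBS arrays. Of the 4 tested of 5, Flt3, Zbtb46 and Ccr7 were called higher and Itgax lower in both, and Xcr1 was well above background on 0 arrays. Mast-cell markers summed to 75.03 to 76.96 on the KO LPS arrays, against 59.0 to 67.6 on the KO PBS arrays, and to 86.1 to 106.5 on the WT LPS arrays, against 67.8 to 90.3 on the WT PBS arrays. The dendritic-cell sums were higher with LPS without overlap in both genotypes, and the mast-cell sums without overlap in KO but with overlap in WT. Nearly all of the dendritic-cell sum came from Ccr7 (1.69 log2 units in KO, 1.44 in WT), while Itgax changed by -2.84 and -2.94. The sum therefore does not stand for dendritic-cell markers as a set. Of 7 mast-cell markers, 2 were called higher and 1 lower in KO, and 2 higher and 2 lower in WT. Of 6 neutrophil markers tested, 2 were called higher and 2 lower in each genotype. The part of these cell types in the G2 and M changes was not tested.

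Other genes of the same pathways, in 9 lists, are set beside the members by counts. Of 209 tested of 231 listed, 60 rose and 86 fell in KO, and 65 rose and 83 fell in WT. Beside these and the counts per list stand the shares of all genes tested. In KO 35.1% rose and 32% fell, and in WT 33.7% rose and 31% fell. Of 37 genes of kinetochore, condensation and cohesion, 4 rose and 21 fell in KO, and 8 rose and 25 fell in WT, with medians of -0.40 and -0.51 log2 units. Among them were the condensin subunit Ncapd2 (-1.13 in KO, -1.39 in WT), the kinetochore protein Spc25 (-1.01 and -1.33) and the centromeric histone Cenpa (-1.52 and -1.48). Of 20 genes of spindle and cytokinesis, 2 rose and 13 fell in KO, and 2 rose and 10 fell in WT, with the cytokinesis scaffold Anln at -1.49 and -1.94. By contrast 10 of 16 nucleotide supply genes rose and 4 fell in KO, and 10 rose and 2 fell in WT. Among those with the smallest p were the cytidine triphosphate synthase Ctps (1.46 and 1.51) and the pyrimidine enzymes Umps (1.15 and 0.97) and Cad (0.82 and 0.96). They did not have the largest rise of that list, which was 2.23 log2 units in KO and 1.97 in WT.

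Of 18 genes of RB, E2F, MYB and FOXM1, 6 rose and 8 fell in KO, and 6 rose and 6 fell in WT. The transcription factors Myc (2.505 in KO, 2.27 in WT) and Mybl2 (1.81 and 1.798) rose, and Rb1, the retinoblastoma gene, fell (-0.64 and -0.83). Of 19 origin genes, 6 rose and 7 fell in KO, and 6 rose and 8 fell in WT, with the geminin gene Gmnn, an inhibitor of licensing, at -1.22 and -1.25. Of 29 synthesis genes, 5 rose and 13 fell in KO, and 6 rose and 14 fell in WT, and the 2 polymerase delta genes Pold1 (-1.32 and -1.33) and Pold2 (0.89 and 1.05) moved in opposite directions. Of 27 inhibitor and checkpoint genes, 11 rose and 8 fell in KO, and 10 rose and 8 fell in WT, with the stress gene Gadd45b at 1.996 and 2.36. Of 27 other cyclins and kinases, 12 rose and 8 fell in KO, and 11 rose and 6 fell in WT, with Cdk5r1, the activator of CDK5, at 4.02 and 3.73. Of 16 anaphase-promoting complex genes, 4 rose and 4 fell in KO, and 6 rose and 4 fell in WT, with the inhibitor Fbxo5 at -0.95 and -0.68.

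The second question was how KO cells differed from WT cells without LPS. In PBS, 1 member was higher in KO and 5 were lower, where 14.1% of all genes were called, 8.06% higher and 6.05% lower. The KO and WT arrays did not overlap for 5 members above and 6 below, where 30.5% of all genes did not. The 19 G2 and M genes all had a positive estimate (median 0.26 log2 units), but only Birc5 was called. Their mean signals, given above, overlapped between the groups, with WT PBS replicate 3 inside the range of the KO arrays.

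**Figure D5:**
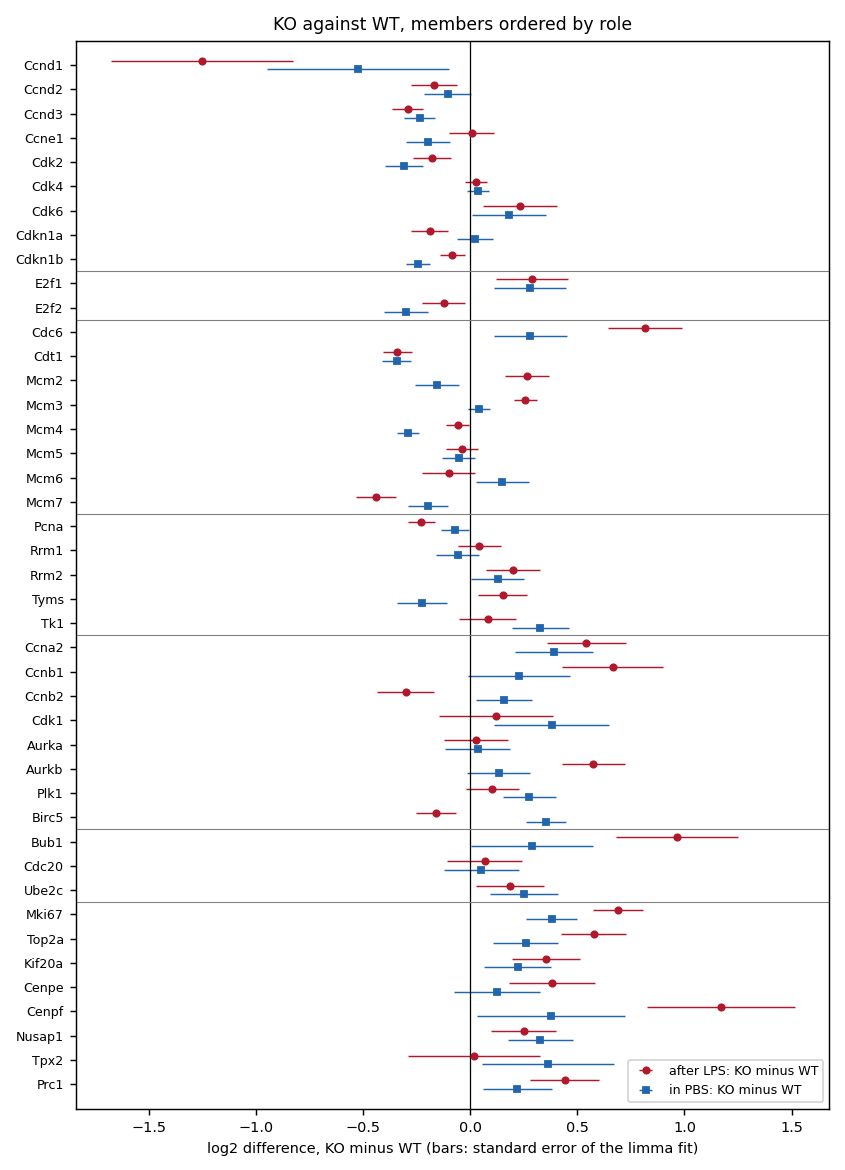
Difference of KO less WT for each gene after LPS (red circles) and in PBS (blue squares), in log2 units with the standard error. Of the 19 G2 and M genes, in the lower part, 17 lie above 0 after LPS and 19 in PBS, and Ccnd1 lies furthest below 0. Aurkb, Bub1 and Cenpf after LPS are fitted on WT arrays where the probe was not well above background.

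Birc5, with the PBS values given above, differed by 0.35 log2 units (SE 0.092, adjusted p = 0.0265). Cdt1, also with the values above and without overlap, differed by -0.34 log2 units (SE 0.067, adjusted p = 0.00669). Mcm4 had 1.59, 1.69 and 1.56 on the KO PBS arrays, against 1.89, 1.84 and 1.98 on the WT PBS arrays, and 1.499, 1.45 and 1.47 on the KO LPS arrays, against 1.51, 1.51 and 1.57 on the WT LPS arrays. The PBS arrays were apart, and Mcm4 differed by -0.29 log2 units (SE 0.052, adjusted p = 0.00417) in PBS and by -0.059 after LPS.
Cdk2 had -1.605, -1.72 and -1.56 on the KO PBS arrays, against -1.29, -1.24 and -1.42 on the WT PBS arrays, and -2.07, -2.13 and -2.16 on the KO LPS arrays, against -1.94, -1.84 and -2.05 on the WT LPS arrays. The PBS arrays did not overlap, and Cdk2 differed by -0.31 log2 units (SE 0.089, adjusted p = 0.0405) in PBS.
Cdkn1b had 2.03, 2.04 and 1.96 on the KO PBS arrays, against 2.33, 2.24 and 2.19 on the WT PBS arrays, and 1.75, 1.88 and 1.72 on the KO LPS arrays, against 1.81, 1.92 and 1.86 on the WT LPS arrays. The KO PBS arrays were lower without overlap, and Cdkn1b differed by -0.24 log2 units (SE 0.057, adjusted p = 0.0163) in PBS.
Ccnd3 had 1.81, 1.74 and 1.83 on the KO PBS arrays, against 2.04, 2.05 and 2.003 on the WT PBS arrays, and 1.302, 1.17 and 1.400 on the KO LPS arrays, against 1.62, 1.68 and 1.44 on the WT LPS arrays. KO was lower in each pair without overlap, and Ccnd3 differed by -0.24 log2 units (SE 0.071, adjusted p = 0.0477) in PBS.
Only Cdt1 and Mcm4 of these 6 were called within slide 1. Of the other 4, the calls of Birc5, Ccnd3, Cdk2 and Cdkn1b were each lost without at least 1 array, at adjusted p between 0.0526 and 0.144. Without WT PBS replicate 3, 6 members were called higher and 7 lower, among them Mki67 (0.51, adjusted p = 0.00646), Plk1 (0.42, adjusted p = 0.0146) and Ccnd1 (-1.19, adjusted p = 0.00189). Calls over all genes moved as well when 1 array was left out, between 917 and 2579 genes, beside 1874 in the main fit. The 14.1% given above therefore does not serve as the share for the fit without WT PBS replicate 3. B-cell markers were lower in KO in 5 of 10 genes, with 0 higher, at the sums given above, and T-cell and NK-cell markers in 2 of 7. Of 8 macrophage markers 2 were higher, of 6 neutrophil markers 2 were higher, of 7 mast-cell markers 1 was lower, and of 4 dendritic-cell markers 1 was higher and 2 were lower. Their part in these differences was not tested.

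After LPS, 10 members were higher in KO cells than in WT cells and 5 were lower, where 39.5% of all genes were called, 20% higher and 19.5% lower. The higher ones were the loading factor gene Cdc6, the helicase gene Mcm3 and 8 of the 19 G2 and M genes, of which 0 were lower, with a median difference of 0.35 log2 units (0.19 with dim genes at their bounds or left at 0 difference where no bound could be had) beside -0.0099 over all genes. KO and WT arrays did not overlap, with KO above for 12 members and below for 11, where 58.4% of all genes did not overlap. Genotype and slide coincide in these 6 arrays. With slide as a term, only Cdt1 and the dim Aurkb of the 15 were still called, and 776 genes in place of 5242. That term is estimated from KO PBS replicate 3 against the other 2 KO PBS arrays alone. Calls lost and calls kept with it both rest on that 1 array, and the differences are estimated with less precision.

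Mki67, with the LPS values given above and no overlap, was higher in KO by 0.69 log2 units (SE 0.12, adjusted p = 0.00132), and with slide as a term by 0.81 (adjusted p = 0.0572). Cdc6 was higher without overlap by 0.82 log2 units (SE 0.17, adjusted p = 0.00387), and with slide as a term by 0.20 (adjusted p = 0.62). Ccnb1 was higher without overlap by 0.67 log2 units (SE 0.24, adjusted p = 0.0427), and with the slide term by 1.23 (adjusted p = 0.101). Top2a had -1.02, -0.87 and -1.12 on the KO LPS arrays, against -1.73, -1.73 and -1.27 on the WT LPS arrays, and -0.62, -0.32 and -0.71 on the KO PBS arrays, against -0.85, -1.004 and -0.58 on the WT PBS arrays. Its LPS arrays were apart and its PBS arrays overlapped. Top2a was higher in KO after LPS by 0.58 log2 units (SE 0.15, adjusted p = 0.0114), and with the slide term by 0.81 (adjusted p = 0.11).
Ccna2 was higher by 0.54 log2 units (SE 0.18, adjusted p = 0.0354), although KO LPS replicate 1 lay within the WT LPS arrays, and Prc1 was higher without overlap by 0.44 log2 units (SE 0.16, adjusted p = 0.0456). Mcm3 was higher without overlap by 0.26 log2 units (SE 0.053, adjusted p = 0.00339). A second probe of Prc1 was not called (adjusted p = 0.349), and it was well above background on 0 of 3 WT LPS arrays. The further probes of Mcm3 gave 0.23 (adjusted p = 0.0114) and 0.042 log2 units (adjusted p = 0.818). With the mean of kept probes, the calls of both Prc1 and Mcm3 were lost. Aurkb was at least 1.29-fold higher (adjusted p = 0.0105). Its call with the slide term (adjusted p = 0.0444) also rests on WT LPS arrays where it was dim, so no size is given for it. Bub1 and Cenpf were called higher as well (adjusted p = 0.0196 and 0.0198). Bub1 was well above background on 0 of 3 KO LPS and 0 of 3 WT LPS arrays, so that neither group was measured, and Cenpf on 2 of 3 and 0 of 3, and no fold is given for either. With probes well above background on all 12 arrays, from which these 3 genes are absent, 7 members were called higher and 5 lower, and 5 of 14 G2 and M genes were higher.

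Of the 5 that were lower in KO after LPS, Ccnd1 differed by -1.25 log2 units (SE 0.43, adjusted p = 0.0362), with KO arrays below WT arrays without overlap. Mcm7 had 1.25, 1.396 and 1.32 on the KO LPS arrays, against 1.79, 1.63 and 1.86 on the WT LPS arrays, and 1.53, 1.49 and 1.26 on the KO PBS arrays, against 1.51, 1.55 and 1.800 on the WT PBS arrays. The LPS arrays were apart, and Mcm7 differed by -0.44 log2 units (SE 0.094, adjusted p = 0.00433). Cdt1 differed by -0.34 log2 units (SE 0.067, adjusted p = 0.00289), and Ccnd3 by -0.29 log2 units (SE 0.071, adjusted p = 0.00815), both without overlap.
Pcna had 4.496, 4.58 and 4.58 on the KO LPS arrays, against 4.79, 4.86 and 4.69 on the WT LPS arrays, and 4.44, 4.47 and 4.28 on the KO PBS arrays, against 4.53, 4.49 and 4.38 on the WT PBS arrays. The LPS arrays were apart, and Pcna differed by -0.23 log2 units (SE 0.064, adjusted p = 0.0159) after LPS.
Cdt1 was lower in KO both in PBS and after LPS (-0.34 log2 units each) and kept its call with slide as a term in both, at -0.41 (adjusted p = 0.00296) in PBS and -0.53 (adjusted p = 0.016) after LPS. The calls of Bub1, Ccna2, Ccnb1, Ccnd1, Cenpf, Pcna and Prc1 were each lost without at least 1 array, at adjusted p between 0.0518 and 0.136. B-cell markers were lower in KO after LPS in 6 of 10 genes, with 0 higher, and of 7 T-cell and NK-cell markers 4 were lower and 1 higher. Of 8 macrophage markers 3 were higher and 1 lower, and of 6 neutrophil markers 2 were higher, S100a9 by 2.33 log2 units and Elane by 0.90. Of 7 mast-cell markers 2 were lower, and of 4 dendritic-cell markers 1 was higher and 1 lower. Their part was not tested.

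The last comparison was the change with LPS in KO less that in WT. Of 43 members, 0 were called higher and 1 was called lower, where 4.31% of all genes were called, 0.926% higher and 3.39% lower. The one was Birc5, at -0.51 log2 units (SE 0.13, adjusted p = 0.0487), from a rise in WT and no call in KO. Its call was lost with slide as a term, at -0.49 (adjusted p = 0.192), and without any one of 10 arrays. Without WT PBS replicate 3, Ccnb2 and Tyms were called too, and without KO PBS replicate 3, Ccnb2 and Cdc6. When 1 array was left out, calls over all genes ran from 360 to 2797, beside 573 in the main fit. KO PBS replicate 3 was the only KO PBS array on slide 2. Without it, the LPS change in KO coincides with slide, and the 2 cannot be told apart in the calls of Ccnb2 and Cdc6. With all 12 arrays and no block, the LPS changes of the other 42 members, including the falls of G2 and M genes, were not called different between the genotypes. With the replicate number as a block, Mki67 was called higher besides Birc5. A missed threshold does not show that the changes were alike. For Ccnb1 the difference was 0.44 log2 units (SE 0.33, adjusted p = 0.482), for Ccna2 0.15 log2 units (SE 0.26, adjusted p = 0.773) and for Cdc20 0.017 log2 units (SE 0.25, adjusted p = 0.977). In the 9 lists of other genes, 1 of 209 was called higher and 8 lower. Among them were the cohesin regulator Pttg1 at -0.56 log2 units (SE 0.11, adjusted p = 0.0123), the centriole gene Sass6 at -1.17 log2 units (SE 0.098, adjusted p = 2.95e-05), the mitotic kinase Nek2 at -1.49 log2 units (SE 0.36, adjusted p = 0.0385), the RB relative Rbl1 at -0.73 log2 units (SE 0.098, adjusted p = 0.000881) and the deoxynucleotide hydrolase Samhd1 at -1.22 log2 units (SE 0.15, adjusted p = 0.000369). The condensin subunit Ncapd3 was called higher, at 0.57 log2 units (SE 0.12, adjusted p = 0.0182).

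Between KO and WT, the 9 lists gave 12 higher and 18 lower genes in PBS and 26 higher and 46 lower genes after LPS, of 209. Of all genes tested, 14.1% were called in PBS, 8.06% higher and 6.05% lower, and 39.5% after LPS, 20% higher and 19.5% lower. After LPS, the kinetochore list had 8 higher and 7 lower of 37, and the spindle list 3 and 3 of 20. In the nucleotide list 0 were higher and 6 lower of 16, with Samhd1 at -0.87 log2 units (SE 0.10, adjusted p = 0.000153), Ctps at -0.22 and Cad at -0.25 log2 units. In the spindle list, Anln (0.83) and Melk (1.12) were higher in KO, and Sass6 (-0.96) and Nek2 (-0.96) were lower. KO LPS and WT LPS arrays lay on different slides for these genes too.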

How the data were processed

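Macrophages of 12 samples were measured on 1-colour Agilent arrays. Per the file headers, the authors deposited a background-corrected intensity for each spot, made with Agilent Feature Extraction, whose version is 11.5.1.1 according to the submitters' processing notes, and quality flags of 0 or 1, used here as given. Groups and replicate numbers came from the sample titles. The 46 members and the lists of other genes were chosen with earlier results of these data known.

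Of 62976 spots, 3671 controls were left out. The log2 intensity was reduced by the array's 75th percentile, and spots of a probe were averaged without outlier spots. Probes were named through RefSeq accessions (58.3% of 56605). A probe needed a signal well above background on each of the 3 arrays of 1 group or more (28827 probes), and the brightest per symbol gave 13283 genes. A mean per group was fitted over 12 arrays with limma 3.58.1 (R 4.3.3) and a variance trend, two-sided, with Benjamini-Hochberg adjustment over all genes, threshold 0.05. The number of arrays limits the precision. The limma fit was tested on simulated data, for LPS in WT alone and with independent noise. Scaling, the filter, the choice of probe, slide and pairing were not simulated.

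Full statistics and values per array are given for up to 8 called members with the largest rise and 8 with the largest fall in each comparison, and of each other list up to 4 called genes with the smallest p were eligible for naming (2 where a list had no call). Whether equal replicate numbers pair the arrays was checked by correlating their residuals. These were 0.105, 0.371 and 0.481 for LPS in WT, all above 0.1, so WT results that change with a replicate block are given with it. They were 0.04, 0.113 and 0.081 for LPS in KO, and between -0.102 and 0.017 for KO against WT. The equal number gave the highest correlation for every replicate of LPS in KO, for replicates 2 and 3 of LPS in WT, and for none of KO against WT. Pairing of the KO arrays is thus neither shown nor excluded. Alternatives were 2 other scalings, normexp (offset 50), 2 other filters, the mean of a gene's probes, 2 variance models, slide as a term or alone, the block, and leaving out each array. Normexp used the median spot signal, since the files used here hold no mean signal. Keeping every probe as its own entry was added after seeing the data.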

Additional observations from a re-analysis of the deposited data

Results flagged for a closer look

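Birc5 was the one member whose change with LPS differed between the genotypes by a test of the difference itself. The change was -0.065 log2 units in KO and 0.45 in WT, and the difference was -0.51 log2 units (adjusted p = 0.0487 by limma over all genes tested). Without LPS, Birc5 was higher in all 3 KO arrays (0.78 to 0.85) than in the WT arrays (0.27 to 0.71), and after LPS it was lower in the KO arrays (0.66 to 0.80) than in the WT arrays (0.89 to 0.93). A second probe of Birc5 gave a difference of -0.34 log2 units (adjusted p = 0.644). KO LPS and WT LPS arrays lay on different slides, and with slide as a term the difference was -0.49 log2 units (adjusted p = 0.192), so the call rests on a fit without it. The cause was not tested.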

How the results depend on the processing

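With 1 value per gene, the directions held for every called member under every alternative run except Cdkn1a with LPS in KO, which turned to -0.013 log2 units (adjusted p = 0.904) under normexp background correction; the cause was not tested. With every probe as its own entry, Birc5 with LPS in WT and Mcm3 with LPS in KO each had a probe of the other sign, at -0.38 (adjusted p = 0.245) and -0.027 (adjusted p = 0.866). With slide as a term, members lower with LPS in KO numbered 17 in place of 26, members higher and lower in KO after LPS numbered 1 and 1 in place of 10 and 5, and all genes called there 776 in place of 5242. For KO against WT in PBS, members called higher (1) numbered 2 with probes well above background on all 12 arrays, 0 with the mean of kept probes, 0 within slide 1 and 0 with the replicate block. Members called lower (5) numbered 3 without a filter on dim probes, 2 within slide 1 (Cdt1 and Mcm4) and 0, those 2 included, with the replicate block, and all genes (1874) numbered 1087 and 216 within slide 1 and with the block. The interaction call (1 lower) numbered 0 with quantile normalization, without a filter, with the mean of kept probes, without a variance trend and with slide as a term, and the replicate block gave 1 higher (Mki67) and 1006 genes in place of 573.

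Leaving out 1 array gave, for LPS in WT, 8 to 11 members higher, 23 to 25 lower and 7935 to 9170 genes. For LPS in KO it gave 8 to 11, 22 to 27 and 7896 to 9434. For KO against WT in PBS it gave 0 to 6, 2 to 7 and 917 to 2579, and after LPS 5 to 12, 3 to 8 and 3762 to 6111. For the interaction it gave 0 to 1, 0 to 2 and 360 to 2797. With the replicate block, KO against WT after LPS lost Bub1, Ccna2 and Ccnd3 and gained Ccnb2, LPS in KO lost Mcm4, Pcna and Rrm1 and gained Tpx2, and equal numbers correlated at 0.113 or less outside WT. Probes near background limit Aurkb, Bub1, Bub1b, Cenpf, Kif11 and Ccne2, whose folds against a group where they were dim are bounds or are not given.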
